A study of Mus musculus with 9 samples.

Results

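Endothelial leukocyte adhesion molecules are the surface proteins with which the inner lining of blood vessels catches and holds white blood cells. The 7 genes described here are Sele and Selp (E- and P-selectin), Icam1, Icam2 and Vcam1 (immunoglobulin-type adhesion molecules) and F11r and Jam2 (junctional adhesion molecules JAM-A and JAM-B). They were taken by name from the 35112 genes of the deposited table, with earlier results of these data known. All 7 passed the filter on low counts that left 21900 genes for testing. Polyadenylated RNA came from the brains of wild-type C57BL/6 mice, taken at 72 hours. The 3 groups held 3 separate mice each: sham (given a control treatment only), intracerebral haemorrhage (ICH, bleeding into the brain) and ICH with P7C3-A20, an aminopropyl carbazole studied as a neuroprotective compound. The labels used here give no age, brain region or dose. Libraries are named by group and replicate, as in ICH 2, and the numbers have no order.

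White blood cells leave a vessel in steps. Selectins on the endothelium slow the rolling cell by binding sugar-decorated ligands such as PSGL-1, the product of Selplg. ICAM-1, ICAM-2 and VCAM-1 then hold it by binding leukocyte integrins, and the cell crosses at or near the junctions, where JAM-A and JAM-B sit. In resting brain vessels E- and P-selectin are scarce, and inflammatory signals acting through NF-kappaB and AP-1 factors can induce several of these genes. Most of the 7 are not made by endothelium alone: platelets make P-selectin, ICAM-2 and JAM-A, white blood cells make ICAM-1, ICAM-2 and JAM-A, and choroid plexus epithelium can make ICAM-1 and VCAM-1.

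By position, 3 of the genes lie on chromosome 1, plus strand: Sele (ENSMUSG00000026582, 164048234 to 164057677), Selp (ENSMUSG00000026580, 164115264 to 164150026) and F11r (ENSMUSG00000038235, 171437535 to 171464603). Icam1 (ENSMUSG00000037405) is on chromosome 9, plus strand, 21015985 to 21028817. Icam2 (ENSMUSG00000001029) is on chromosome 11, minus strand, 106377656 to 106388075. Vcam1 (ENSMUSG00000027962) is on chromosome 3, minus strand, 116109949 to 116129688. Jam2 (ENSMUSG00000053062) is on chromosome 16, plus strand, 84774123 to 84825928. The table names no genome build, and all 7 positions and strands were identical to those of GENCODE M21 on GRCm38. Sele and Selp are neighbours, 57586 bases apart.

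Promoter sequence was at hand for 4 of the 7 genes, from RefSeq on GRCm38.p6, and is shown for those 4, which were among the genes called higher after ICH. Each sequence ends just before the RefSeq start, 5′ to 3′ on the plus strand, except that for F11r the 26 bases nearest that start, which the deposited table places inside the gene, are left out. Capitals mark a match to the AP-1 letters TGANTCA, a loose pattern in which N is any base, searched on both strands. The base at N was C in Sele, T in Selp and G in F11r.
Sele (chr1:164048084-164048233): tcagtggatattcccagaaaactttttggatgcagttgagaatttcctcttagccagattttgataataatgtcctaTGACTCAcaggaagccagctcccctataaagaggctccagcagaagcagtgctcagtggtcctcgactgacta
Selp (chr1:164115114-164115263): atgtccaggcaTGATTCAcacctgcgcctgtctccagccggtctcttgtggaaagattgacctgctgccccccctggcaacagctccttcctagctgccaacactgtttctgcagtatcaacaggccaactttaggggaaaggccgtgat
F11r (chr1:171437411-171437534): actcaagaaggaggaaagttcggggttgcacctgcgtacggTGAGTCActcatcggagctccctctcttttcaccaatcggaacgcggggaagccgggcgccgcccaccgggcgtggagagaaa
Icam1 (chr9:21015790-21015939): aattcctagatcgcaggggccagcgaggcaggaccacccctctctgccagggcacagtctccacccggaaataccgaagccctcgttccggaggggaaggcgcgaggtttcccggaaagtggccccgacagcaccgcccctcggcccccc
Counted from the RefSeq start, the AP-1 letters lay 73 to 67 bases before it in Sele, 139 to 133 in Selp and 109 to 103 in F11r, and were not found in the 250 bases before the start of Icam1. Of all 32851 RefSeq promoters, 6.75% hold these letters in the same 250 bases. The kappaB letters GGGRNNYYCC (R is A or G, Y is C or T) were found on neither strand in the 4 windows of 250 bases. Of all promoters, 7.25% hold them. Only exact matches were sought, and a site that differs by a base would be missed. The lack of a match therefore does not show that kappaB sites are absent. A match is a run of letters and does not show that a factor binds there.

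Levels are given first as deposited FPKM, fragments scaled by library size and by gene length. Comparisons between genes depend on the length used. The length used is that of all annotated exons merged, which for Vcam1 (8870 bases) is well over its longest transcript (4088 bases) and lowers its FPKM. In the sham brains Jam2 was the highest of the 7 at 8.20 ± 1.58 FPKM (mean ± SD, n = 3 here and throughout). Vcam1 (3.18 ± 0.456 FPKM) and F11r (2.82 ± 0.551 FPKM) followed with overlapping libraries. Icam2 (0.834 ± 0.271 FPKM) and Icam1 (0.410 ± 0.212 FPKM) also overlapped each other. Selp (0.0367 ± 0.0245 FPKM) and Sele (0.00994 ± 0.0172 FPKM) were lowest and overlapped. After ICH the order was Jam2 at 14.2 ± 1.42, F11r at 10.1 ± 1.28, Vcam1 at 8.36 ± 0.553 and Icam1 at 4.24 ± 0.437 FPKM. Icam2 (2.07 ± 1.02 FPKM) and Selp (2.06 ± 0.324 FPKM) overlapped below these, and Sele (0.665 ± 0.0238 FPKM) was lowest. The place of Vcam1 rests on the length: with the longest transcripts in place of merged exons, Vcam1 stood at 21.1 and F11r at 12.4 CPM per kilobase in ICH. In sham they stood at 8.29 and 3.60 CPM per kilobase. Icam1 stood above Icam2 in every ICH library and below it in every sham library, though in sham their ranges overlapped.

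**Figure D1:**
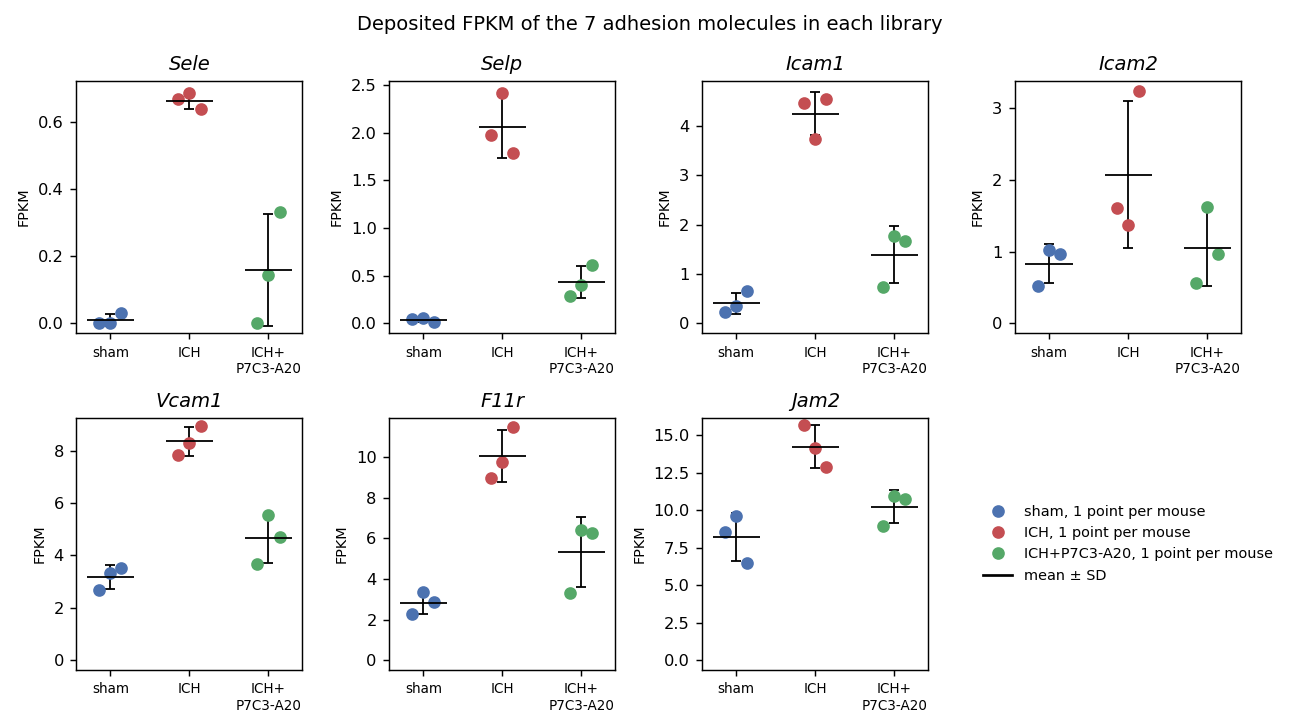
Deposited FPKM (vertical axes, linear, 1 panel per gene) of the 7 adhesion molecules in sham, ICH and ICH+P7C3-A20. Points are single mice and black lines the group mean ± SD of 3; the ICH libraries lie above all sham libraries in every panel, and ICH+P7C3-A20 libraries lie below all ICH libraries in every panel except Icam2.

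Depth was similar across libraries, at 51537047 to 63324728 estimated counts, and 3 counts in a single library equal 0.0455 to 0.0625 CPM (counts scaled to a common library size with TMM), a limit for counting error only. The summed FPKM of 8 neuron markers (343 to 671), 9 astrocyte markers (360 to 507) and 8 oligodendrocyte markers (648 to 1955) shows the cells of brain tissue in every library. Within its group ICH+P7C3-A20 1 differed most, with neuron markers at 671 FPKM against 489 and 421, oligodendrocyte markers at 648 against 1569 and 1361, and 14 endothelial markers at 74.4 against 100.2 and 95.7. Choroid plexus epithelium markers varied most, from 12.5 to 409 FPKM in sham, 17.2 to 2389 in ICH and 46.5 to 1614 in ICH+P7C3-A20. For all 7 adhesion molecules the lowest FPKM of the treated group was in ICH+P7C3-A20 1, and comparisons with that group are therefore also given without it. What these markers contribute to the results was not tested.

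The comparison of ICH with sham asks how haemorrhage altered these transcripts. All 7 genes were called higher after ICH, and in all 7 every ICH library lay above every sham library (overlap is judged on CPM here and throughout). Over the 21900 tested genes, 15.6% were called higher and 10.4% lower, and 23.3% had ICH libraries all above the sham libraries. That is 3418 higher and 2283 lower, while limma on quantile-normalized values gave 2949 and 3192. The median log2 change was 1.78 over the 7 genes and 0.00 over all tested genes. In bulk tissue, more cells of a type and more RNA per cell cannot be told apart, and p-values here measure the spread between 3 mice per group. Calls are from edgeR's quasi-likelihood test at a Benjamini-Hochberg adjusted p under 0.05 over all tested genes, and the ± of a log2 change is its standard error.

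The selectins had the largest log2 changes of the 7 in edgeR's fit. With limma on log2(FPKM + 1), which shrinks genes under 1 FPKM, Icam1 (1.902) stood above Selp (1.56) and Sele (0.72), and with log2(FPKM + 0.1) Icam1 (3.17) stood above Sele (2.81). Sele, which brings white blood cells to a slow roll, was listed at 0 in sham 1 and 2 and at 0.0298 FPKM in sham 3. After ICH it stood at 0.669, 0.686 and 0.639 FPKM in replicates 1, 2 and 3. The ICH values lie close together and far above the single sham library with any count. In estimated counts the sham libraries held 0, 0 and 7 and the ICH libraries 131, 135 and 121, so that the log2 change of 5.81 ± 1.37 (edgeR adjusted p = 0.0105) rests on 7 counts in sham and its size is loosely fixed. Without sham 3 all sham libraries are at 0, and the fitted 9.98 (adjusted p = 0.0160) then depends on the prior count.

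Selp is kept ready in endothelial and platelet granules and carries the first contact. Its FPKM was 0.0452, 0.0558 and 0.00910 in sham 1, 2 and 3 and 1.98, 2.42 and 1.79 in ICH 1, 2 and 3. The lowest ICH library was thus many times the highest sham library. The group means were 0.210 ± 0.144 CPM in sham and 10.7 ± 2.44 CPM in ICH, a 51.8-fold rise (log2 change 5.70 ± 0.56, edgeR adjusted p = 5.09e-05). The size of this rise rests on 15, 17 and 3 estimated counts in sham 1, 2 and 3. The log2 change was 5.19 without sham 3, 6.11 without sham 2 and 3.99 with limma on log2(FPKM + 0.1).

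Icam1, the ligand of the leukocyte integrins LFA-1 and Mac-1, read 0.239, 0.343 and 0.647 FPKM in sham 1, 2 and 3. The ICH libraries read 4.46, 3.74 and 4.53 FPKM, all well above sham. Icam1 rose 10.1-fold (log2 change 3.34 ± 0.35, edgeR adjusted p = 7.79e-05), the largest change among the 3 immunoglobulin-type molecules.

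Vcam1, which binds the integrin VLA-4, read 2.66, 3.34 and 3.53 FPKM in sham 1, 2 and 3 and 7.85, 8.28 and 8.95 FPKM in ICH 1, 2 and 3. Both groups were tight and apart. The rise was 2.55-fold (log2 change 1.35 ± 0.12, edgeR adjusted p = 2.58e-05), with the smallest error of the 7.

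Icam2, a constitutive ligand of LFA-1, read 0.523, 1.02 and 0.962 FPKM in sham 1, 2 and 3 and 1.61, 1.37 and 3.24 FPKM in ICH 1, 2 and 3. The groups did not overlap, but ICH 3 stood well above the other ICH libraries and the gap between ICH 2 and sham 2 was small. The rise of 2.36-fold (log2 change 1.24 ± 0.40, edgeR adjusted p = 0.0425) is the least secure of the 7. It missed the threshold without sham 1, sham 2, sham 3, ICH 1, ICH 3 or ICH+P7C3-A20 3, with an adjusted p from 0.0505 to 0.191 in those fits, and with limma on log2 FPKM in place of edgeR (0.0763 to 0.0973).

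F11r encodes JAM-A, which sits in tight junctions and binds LFA-1. It read 2.25, 3.36 and 2.85 FPKM in sham 1, 2 and 3 and 8.98, 9.78 and 11.5 FPKM in ICH 1, 2 and 3, with no overlap. F11r rose 3.44-fold (log2 change 1.78 ± 0.22, edgeR adjusted p = 0.000241).

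Jam2 encodes JAM-B, a partner of JAM-C and of VLA-4. It read 8.55, 9.59 and 6.47 FPKM in sham 1, 2 and 3 and 15.7, 14.1 and 12.9 FPKM in ICH 1, 2 and 3. The groups were apart, and the rise was 1.66-fold (log2 change 0.74 ± 0.18, edgeR adjusted p = 0.0137). Without ICH 1 or without ICH 2 the adjusted p was 0.0558 and 0.0505.

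**Figure D2:**
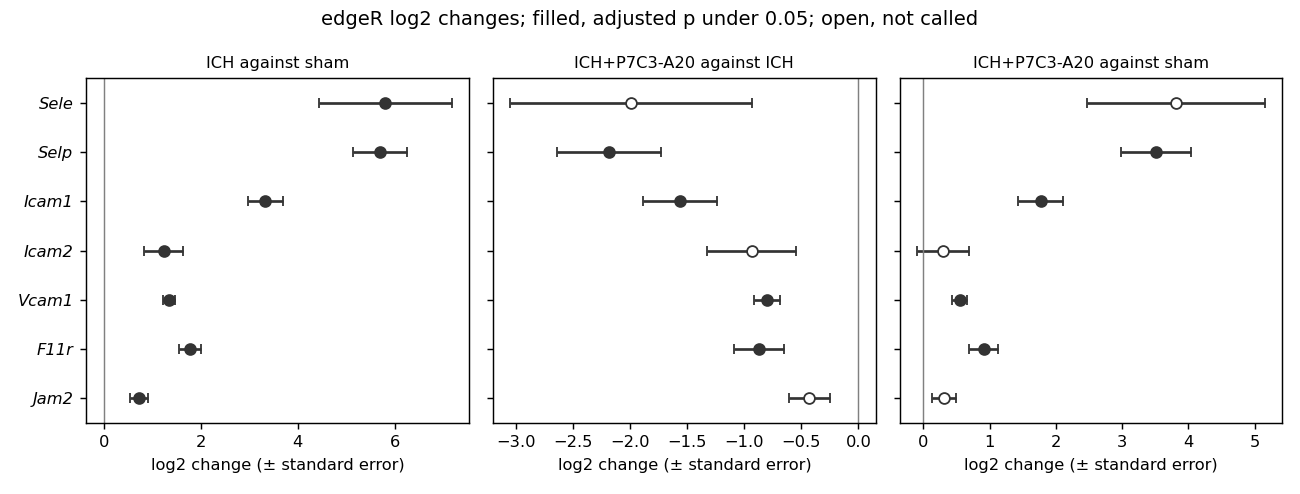
edgeR log2 changes (horizontal axes, each panel with its own range) ± standard error of the 7 genes in the 3 comparisons. Filled points passed an adjusted p under 0.05: all 7 for ICH against sham, 4 for ICH+P7C3-A20 against ICH and 4 for ICH+P7C3-A20 against sham.

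The comparison of ICH+P7C3-A20 with ICH asks what the compound changed after the bleed. It shares the ICH libraries with the first comparison, so the values of each are given side by side and their likeness is not a result. Icam1, Vcam1, Selp and F11r were called lower with P7C3-A20, while Icam2, Sele and Jam2 were not called. These 4 calls stand beside 6.05% of all tested genes called lower and 2.69% called higher. In 6 of the 7 genes every treated library lay below every ICH library, as for 18.5% of all tested genes; Icam2 overlapped. The median log2 change of the 7 was -0.94 and that of all tested genes -0.01.

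Selp read 0.282, 0.403 and 0.609 FPKM in ICH+P7C3-A20 1, 2 and 3, against 1.79 to 2.42 FPKM in ICH. Every treated library was below a level that no ICH library came near. The mean was 2.36 ± 0.986 CPM, and the log2 change was -2.18 ± 0.46 (edgeR adjusted p = 0.0179), 4.55-fold lower. Without ICH+P7C3-A20 1 the log2 change was -1.99 and the adjusted p 0.0680, and without ICH 1 or ICH 2 the adjusted p was 0.0589 and 0.0751.

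Sele was listed at 0, 0.145 and 0.333 FPKM in ICH+P7C3-A20 1, 2 and 3, from 0, 29 and 65 estimated counts, against 121 to 135 in the ICH libraries. The treated libraries spread over the whole gap from sham to near the middle of the ICH level. The log2 change of -1.99 ± 1.06 did not pass (edgeR adjusted p = 0.289). With limma on log2(FPKM + 1), log2(FPKM + 0.1) and quantile-normalized values the adjusted p was 0.00954, 0.0473 and 0.0162, and the cause of this difference was not tested. The log2 change was -1.42 (edgeR adjusted p = 0.404) without ICH+P7C3-A20 1 and -3.27 (0.157) without ICH+P7C3-A20 3.

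Icam1 read 0.731, 1.77 and 1.67 FPKM in ICH+P7C3-A20 1, 2 and 3, against 3.74 to 4.53 FPKM in ICH. The highest treated library was below the lowest ICH library by a wide margin. Its log2 change was -1.57 ± 0.33, or 2.96-fold lower (edgeR adjusted p = 0.0178), and without ICH+P7C3-A20 1 the log2 change was -1.29 (0.0414). Leaving out ICH 1, ICH 2 or ICH 3 gave an adjusted p of 0.0652, 0.0588 and 0.0590.

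Vcam1 read 3.69, 5.56 and 4.70 FPKM in ICH+P7C3-A20 1, 2 and 3, against 7.85 to 8.95 FPKM in ICH. It fell by 0.80 ± 0.12 on the log2 scale, 1.74-fold lower (edgeR adjusted p = 0.00682). Vcam1 kept this call under each of the 19 alternative fits, with a log2 change from -0.86 to -0.66 and an adjusted p of at most 0.0362. Without ICH+P7C3-A20 1 the log2 change was -0.71.

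F11r read 3.33, 6.40 and 6.25 FPKM in ICH+P7C3-A20 1, 2 and 3, against 8.98 to 11.5 FPKM in ICH. The treated libraries were lower, with replicate 1 near the sham level. It fell by 0.87 ± 0.22 on the log2 scale, 1.83-fold lower (edgeR adjusted p = 0.0346). The call was lost without ICH 1, ICH 2, ICH 3, ICH+P7C3-A20 1 or ICH+P7C3-A20 2 (adjusted p 0.0554 to 0.114), and with limma on log2(FPKM + 0.1) (0.0524).

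Icam2 read 0.563, 1.62 and 0.968 FPKM in ICH+P7C3-A20 1, 2 and 3, and the second of these lay within the ICH range. Its log2 change of -0.94 ± 0.39 did not pass (edgeR adjusted p = 0.174), nor did the -0.68 without ICH+P7C3-A20 1 (0.448). Jam2 read 8.94, 10.96 and 10.7 FPKM in the treated libraries, all below the 12.9 to 15.7 FPKM of ICH. Its log2 change of -0.43 ± 0.18 did not pass either (edgeR adjusted p = 0.180), except without sham 3 (0.0469); without ICH+P7C3-A20 1 the log2 change was -0.39 (0.395).

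The treated group was also set against sham. Icam1, Vcam1, Selp and F11r were called higher, and in these 4 every treated library lay above every sham library; Icam2, Sele and Jam2 overlapped sham. For F11r the gap was narrow, and on the FPKM scale ICH+P7C3-A20 1 (3.33) lay just under sham 2 (3.36). Over all tested genes, 4.58% were called higher, 0.744% were called lower and 12.6% had treated libraries all above sham. The median log2 change of the 7 was 0.91 and that of all tested genes 0.03. Selp was 11.4-fold above sham (log2 change 3.51 ± 0.53, edgeR adjusted p = 0.00387) and Icam1 3.41-fold (1.77 ± 0.34, adjusted p = 0.0129). F11r was 1.88-fold above sham (log2 change 0.91 ± 0.22, edgeR adjusted p = 0.0406) and Vcam1 1.46-fold (0.55 ± 0.12, adjusted p = 0.0232). Sele, Jam2 and Icam2 had log2 changes of 3.81 ± 1.34, 0.31 ± 0.18 and 0.30 ± 0.40, with edgeR adjusted p of 0.157, 0.440 and 0.782. The Sele value moved with single libraries: 4.39 without ICH+P7C3-A20 1, which passed (edgeR adjusted p = 0.0206), 2.54 without ICH+P7C3-A20 3 (0.471) and 7.99 without sham 3 (0.116), the last fitted against sham libraries all at 0. Without ICH+P7C3-A20 1 the log2 changes of the 4 called genes were 3.71 for Selp, 2.05 for Icam1, 1.12 for F11r and 0.64 for Vcam1, with edgeR adjusted p from 0.00187 to 0.00733. Icam2 (0.56) and Jam2 (0.34) did not pass without it (edgeR adjusted p = 0.518 and 0.441).

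These calls against sham are less firm than those of ICH against sham. With limma on log2(FPKM + 1), with or without quantile normalization, limma called 0 of the 7 (4 at an unadjusted p under 0.05 in each fit, against 4 called by DESeq2), and with limma on log2(FPKM + 0.1) or with edgeR on the compared groups alone 1 was called. Leaving out 1 library gave 1 to 5 calls, with 2 without sham 1, 2 without ICH+P7C3-A20 2 and 1 without ICH+P7C3-A20 3.

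As a description of how far each gene stood from sham, the treated mean was placed on the CPM scale running from the sham mean to the ICH mean. It lay at 16.8% of that distance for Icam2, 20.4% for Selp, 23.8% for Sele, 26.5% for Icam1, 29.8% for Vcam1, 35.5% for Jam2 and 35.8% for F11r. Single treated libraries spread far around these means. Icam1 lay at 10.7%, 31.5% and 37.3% of the distance in ICH+P7C3-A20 1, 2 and 3. F11r lay at 11.3%, 40.8% and 55.4%, and Selp at 13.9%, 16.3% and 31.2%. Icam2 lay at -19.3%, 52.4% and 17.3%, and Sele at -1.58%, 18.5% and 54.4%. The order of the 7 genes on this scale is therefore not resolved.

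Endothelial markers moved along with the adhesion molecules. Of 14 endothelial identity genes 13 were called higher after ICH, with a median log2 change of 0.98, and 4 were called lower with P7C3-A20 against ICH (0 without ICH 1 or ICH 2, 1 without ICH 3 or ICH+P7C3-A20 1). Their summed FPKM was 54.2 to 73.0 in sham, 128 to 153 in ICH and 74.4 to 100.2 in ICH+P7C3-A20. None was at 0 in a group. Each adhesion molecule was therefore also expressed relative to the mean log2(FPKM + 0.1) of Pecam1, Cdh5, Tek, Tie1 and Erg. That reference was 1.21 ± 0.16 in sham, 2.55 ± 0.10 in ICH and 1.94 ± 0.25 in ICH+P7C3-A20. With 3 against 3 libraries the exact two-sided permutation test cannot go below p = 0.1, which is the p of every difference without overlap.

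Relative to these endothelial genes, Selp, Icam1 and Sele were still higher after ICH. The log2 difference between ICH and sham was 2.64 for Selp, 1.82 for Icam1, 1.46 for Sele and 0.46 for F11r, each with no overlap (exact permutation p = 0.1). Vcam1 (0.03, exact permutation p = 0.6) and Icam2 (-0.18, exact permutation p = 0.8) overlapped between ICH and sham. Jam2 was lower relative to the endothelial genes, with a difference of -0.55 and no overlap (exact permutation p = 0.1). These differences are not levels per endothelial cell, since which cells made Jam2 or the other transcripts was not tested. The reference itself rose by 1.35 after ICH, while the median log2 change of all tested genes was 0.00. A gene that did not change would therefore also lie lower on this scale. The share of all genes that differ on it was not computed.

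Against ICH, the treated libraries were lower relative to the endothelial genes for Selp (-1.44), Sele (-1.18), Icam1 (-1.01), F11r (-0.34) and Vcam1 (-0.23), each with no overlap (exact permutation p = 0.1). Icam2 (-0.31) and Jam2 (0.14) overlapped (exact permutation p = 0.5 for each). Against sham, Selp remained higher by 1.20 and Vcam1 was lower by a difference of -0.21, each with no overlap (exact permutation p = 0.1). The other five overlapped sham, from -0.49 for Icam2 to 0.81 for Icam1. The reference changed by -0.62 against ICH and by 0.73 against sham. A gene that did not change would therefore lie higher on this scale against ICH and lower against sham. For Sele, Selp, Icam1 and Icam2, which lie under 1 FPKM in at least 1 group, these differences depend on the pseudocount. For Icam2 a pseudocount of 1 gave -0.38 in ICH against sham and -0.049 in ICH+P7C3-A20 against ICH. With a pseudocount of 1, Icam1 was 0.82 above sham in ICH and 0.18 above it in the treated group, Sele was lower in ICH than in sham (-0.36) and Selp was lower in the treated group than in sham (-0.11).

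**Figure D3:**
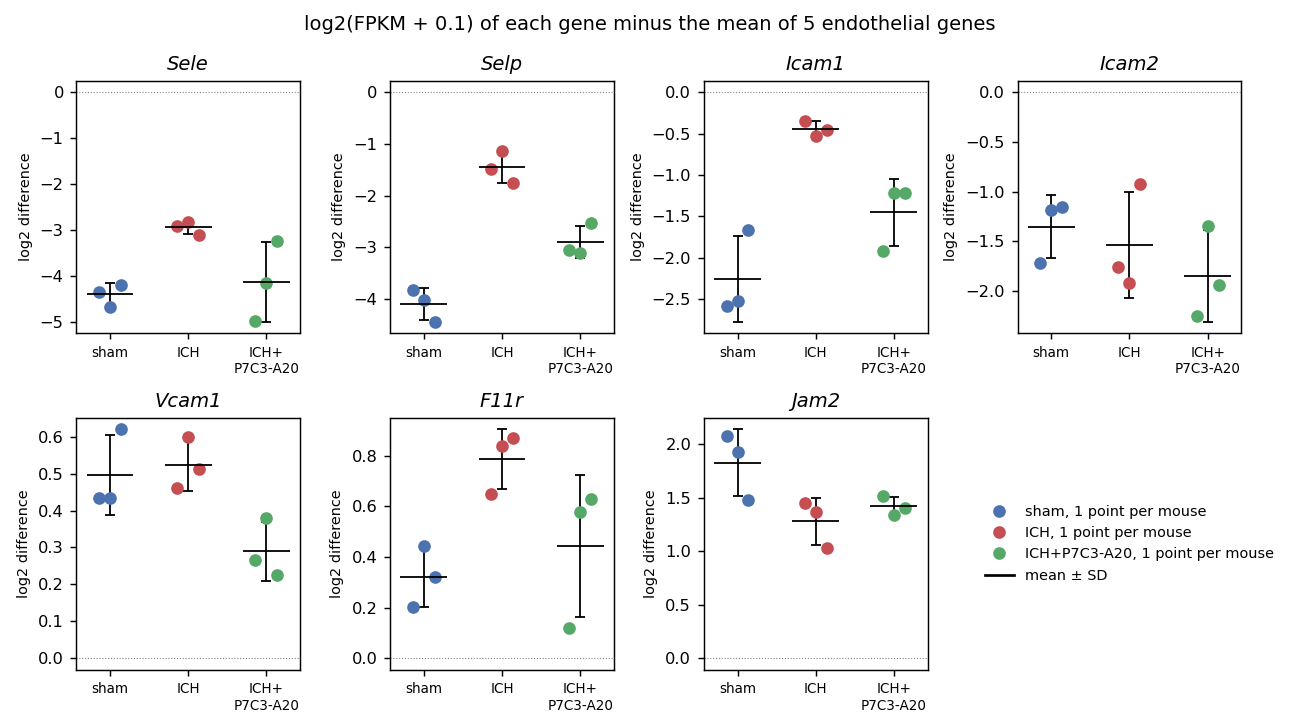
log2(FPKM + 0.1) of each gene minus the mean of the same value over Pecam1, Cdh5, Tek, Tie1 and Erg (vertical axes, each panel with its own range) in each library of the 3 groups. Points are single mice and black lines mean ± SD; Selp, Icam1, Sele and F11r lie higher in ICH than in sham, Vcam1 and Icam2 overlap, and Jam2 lies lower.

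Markers of other cells that make some of these proteins also moved. Of 8 tested platelet genes of 9 listed, 3 were called higher after ICH (Pf4, Itga2b and Treml1; 4 without sham 3), and their summed FPKM was 1.37 to 1.89 in sham, 8.24 to 9.39 in ICH and 2.27 to 4.82 in ICH+P7C3-A20. Mean FPKM went from 0.433 in sham to 6.60 in ICH for Pf4, from 0.212 to 0.509 for Itga2b and from 0 to 0.235 for Treml1. The genes that did not pass went from 0.109 to 0.494 for Gp9 (edgeR adjusted p = 0.138), 0.0824 to 0.157 for Ppbp, 0.537 to 0.504 for Gp1bb, 0.130 to 0.149 for Gp5 and 0.143 to 0.128 for Gp1ba. Gp6 was not tested and was at 0 in all ICH libraries. With P7C3-A20 against ICH 1 platelet gene was called lower, Pf4 (0 without ICH 1 or ICH 2). The part of platelets in the Selp, Icam2 and F11r values was not tested.

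Markers of white blood cells and microglia also differed between the groups. All 9 monocyte and macrophage genes were called higher after ICH, with a median log2 change of 5.02, and 8 were called lower with P7C3-A20 against ICH (4 without ICH 2, 5 without ICH 3). Their summed FPKM was 7.84 to 10.1 in sham, 204 to 263 in ICH and 36.3 to 76.7 in ICH+P7C3-A20. All 8 microglia genes were called higher after ICH, and 4 were called lower with P7C3-A20 (1 without ICH 2, 2 without ICH 1 or ICH 3), with summed FPKM of 75.0 to 105, 320 to 366 and 130 to 215 in the 3 groups. Of 7 tested neutrophil genes 4 were higher after ICH and 1 was lower with treatment, with sums of 2.03 to 3.31, 12.5 to 20.6 and 6.37 to 11.2 FPKM, and Ly6g was at 0 in sham and ICH. Csf3r made up most of these sums, with means of 1.92, 11.3 and 5.49 FPKM in sham, ICH and ICH+P7C3-A20. Mean FPKM of S100a8, S100a9, Cxcr2 and Mmp8 was also highest in ICH. That of Retnlg, Ngp, Camp and Ly6g was highest in ICH+P7C3-A20, and Retnlg was lower in ICH (0.0247) than in sham (0.0685). Of 5 tested lymphocyte genes 1 was higher after ICH (0 without ICH 1), with sums of 0.725 to 3.71, 2.80 to 3.16 and 1.46 to 3.21 FPKM. Their part in the Icam1, Icam2 and F11r values was not tested.

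Choroid plexus markers summed to 794, 17.2 and 2389 FPKM in ICH 1, 2 and 3, beside 4.46, 3.74 and 4.53 FPKM of Icam1 and 7.85, 8.28 and 8.95 FPKM of Vcam1. In ICH+P7C3-A20 1, 2 and 3 they summed to 417, 1614 and 46.5 FPKM, beside 0.731, 1.77 and 1.67 FPKM of Icam1 and 3.69, 5.56 and 4.70 FPKM of Vcam1. On the FPKM scale Icam1 had the same order as these markers within ICH (on CPM it was highest in ICH 1). Both genes were highest in FPKM where the markers were highest in ICH and in ICH+P7C3-A20. On CPM they were not. Vcam1 was highest in ICH 2 (91.6 CPM), and Icam1 (9.34) and Vcam1 (53.4) in ICH+P7C3-A20 3, where the markers were lowest. In sham the markers were highest in sham 2 (409 FPKM) and lowest in sham 3 (12.5 FPKM). Both genes were highest in FPKM in sham 3 (0.647 and 3.53), while on CPM Vcam1 was highest in sham 2 (37.2). The part of choroid plexus in the Vcam1 and Icam1 values was not tested. By edgeR and by DESeq2 0 of the 9 choroid plexus genes were called in each comparison, and 0 had an unadjusted p under 0.05; without ICH 2, 1 was called higher after ICH. Pericyte and smooth muscle genes were called higher after ICH in 6 of 9, fibroblast and meninges genes in 4 of 8 (1 without ICH 1, 2 without ICH 3), astrocyte genes in 4 of 9 and oligodendrocyte genes in 2 of 8. Neuron genes were called lower in 7 of 8 (3 to 4 without sham 1, ICH 1, ICH 2 or ICH 3).

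Most of the genes for the partners that these molecules have on white blood cells were called higher. Whole-brain RNA does not show which cells made them. Of 13 counter-receptor genes 10 were called higher after ICH and 1, Glg1, lower (0 without sham 1, ICH 1 or ICH 2), with a median log2 change of 2.93. Itga9 (-0.39) and Itgad (-0.32) did not pass. Itgb2, the shared beta chain of LFA-1 and Mac-1, went from 1.24 ± 0.278 to 19.2 ± 2.39 FPKM, 15.1-fold (log2 change 3.92 ± 0.27, edgeR adjusted p = 7.67e-06). Itgal, the alpha chain of LFA-1 and so a partner of Icam1, Icam2 and F11r, went from 0.0818 ± 0.0142 to 0.861 ± 0.240 FPKM (log2 change 3.36 ± 0.42, edgeR adjusted p = 0.000233). Itgam, the alpha chain of Mac-1, went from 3.57 ± 1.44 to 29.4 ± 3.32 FPKM (log2 change 3.02 ± 0.34, edgeR adjusted p = 0.000148). Microglia also make Mac-1.

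For the VLA-4 pair that binds Vcam1 and Jam2 the rises were smaller. Itga4 went from 0.542 ± 0.186 to 1.15 ± 0.156 FPKM (log2 change 1.02 ± 0.30, edgeR adjusted p = 0.0305), and Itgb1, which many brain cells make, from 13.1 ± 1.89 to 32.5 ± 4.48 FPKM (log2 change 1.26 ± 0.14, edgeR adjusted p = 0.000103). Among selectin ligands, Selplg went from 6.09 ± 0.401 to 15.9 ± 2.58 FPKM (log2 change 1.34 ± 0.20, edgeR adjusted p = 0.000666). Cd44, an E-selectin ligand when suitably glycosylated, went from 0.481 ± 0.169 to 6.73 ± 0.238 FPKM (log2 change 3.74 ± 0.37, edgeR adjusted p = 6.19e-05).

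With P7C3-A20 against ICH, 6 of the 13 counter-receptor genes were called lower (8 by DESeq2, 3 without ICH 2), with a median log2 change of -1.23. Itgal, Itgam, Itgax, Itgb2, Itgb1 and Cd44 were the 6. Itgal fell to 0.202 ± 0.0882 FPKM (log2 change -2.01 ± 0.39, edgeR adjusted p = 0.0139) and Itgb2 to 6.20 ± 2.10 FPKM (-1.59 ± 0.24, adjusted p = 0.00706). Selplg (-0.62 ± 0.19, edgeR adjusted p = 0.0745) and Itga4 (-0.34 ± 0.30, adjusted p = 0.552) did not pass. Against sham, 4 of the 13 were still higher in the treated brains (8 by DESeq2) and 1, Itga9, was lower (0 without sham 1, ICH+P7C3-A20 2 or ICH+P7C3-A20 3).

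**Figure D4:**
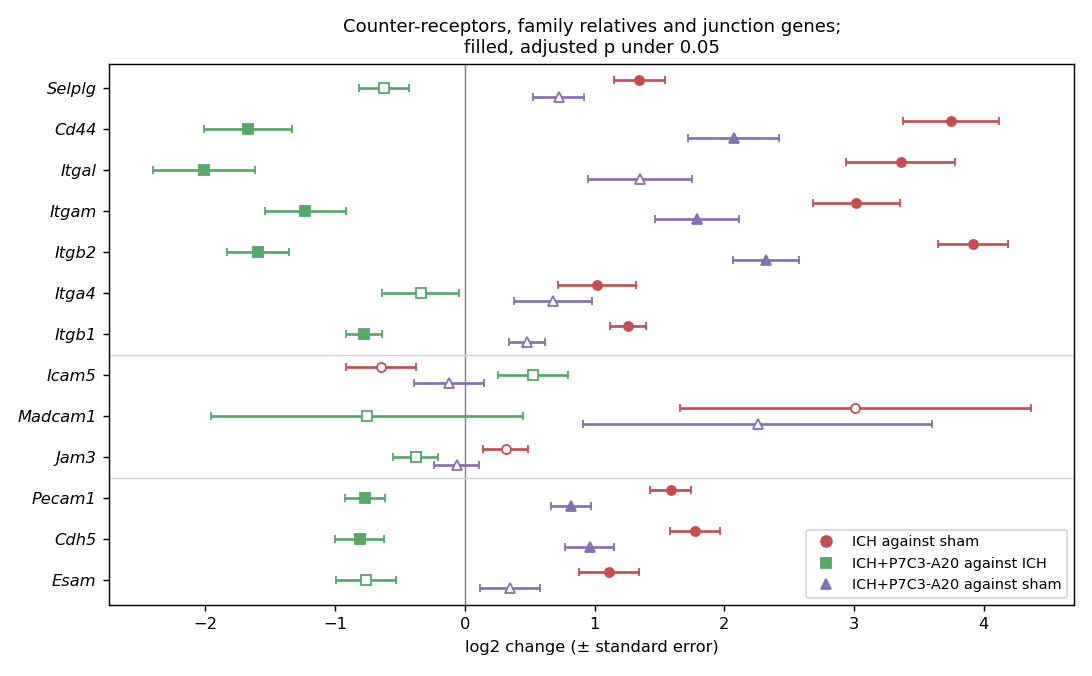
edgeR log2 changes (horizontal axis) ± standard error of 7 counter-receptor genes (top), 3 family relatives (middle) and 3 junction genes (bottom) in the 3 comparisons. Filled points passed an adjusted p under 0.05; all 7 counter-receptor genes passed for ICH against sham, and Itgal, Itgam, Itgb2, Itgb1 and Cd44 passed in the opposite direction for ICH+P7C3-A20 against ICH.

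The relatives of the 7 molecules did not all move with them. Of 17 tested genes (of 18 listed) for related adhesion and transmigration molecules, 8 were called higher and 3 lower after ICH, with a median log2 change of 1.11. Icam5, the neuronal ICAM encoded beside Icam1 on chromosome 9, read 33.9 ± 18.9 FPKM in sham and 22.0 ± 3.98 FPKM in ICH (log2 change -0.65 ± 0.27, edgeR adjusted p = 0.109). Icam4, which lies between them, 555 bases after Icam1, had 5 estimated counts in all sham libraries together and 5 in ICH and was not tested.

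Jam3, which encodes JAM-C, the partner of JAM-B, read 8.25 ± 1.04 FPKM in sham and 10.6 ± 1.04 FPKM in ICH (log2 change 0.32 ± 0.17, edgeR adjusted p = 0.226). Madcam1, the gut homing ligand, read 0.0232 ± 0.0252 and 0.220 ± 0.166 FPKM, a difference that did not pass (edgeR adjusted p = 0.134).

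The junction genes Pecam1 (log2 change 1.59 ± 0.16, edgeR adjusted p = 5.58e-05), Cdh5 (1.77 ± 0.19, adjusted p = 9.24e-05) and Esam (1.11 ± 0.23, adjusted p = 0.00535) rose after ICH. With P7C3-A20 against ICH, Pecam1 (log2 change -0.77 ± 0.16, edgeR adjusted p = 0.0161) and Cdh5 (-0.81 ± 0.19, adjusted p = 0.0262) fell and Esam (-0.76 ± 0.23, adjusted p = 0.0657) did not pass. In that comparison 7 of the 17 related genes were called lower (3 without ICH 1 or ICH 2, 4 without ICH+P7C3-A20 1) and 1 higher (0 without ICH 1, ICH 2, ICH 3 or ICH+P7C3-A20 1).

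Enzymes that build selectin ligands were called higher after ICH in 6 of 12 (4 without sham 1, sham 3, ICH 2 or ICH 3), with a median log2 change of 0.49; 3 were called lower with P7C3-A20 against ICH (2 without sham 1, any ICH library, ICH+P7C3-A20 1 or ICH+P7C3-A20 3). Of 12 cytoplasmic linkers, the proteins that tie these molecules to the actin skeleton, 5 were called higher and 1 lower after ICH (0 lower without sham 1, ICH 1, ICH 2 or ICH 3), with a median log2 change of 0.20. In treated against ICH brains 3 linkers were lower (1 without ICH 1 or ICH 3) and 1 was higher.

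Genes with the most similar profile were sought among 12895 or 12896 genes with at least 1 FPKM in a group, by the root mean square difference of mean-centred log2(FPKM + 0.1) over the 9 libraries. For Selp they were Csf2rb2 (0.128), Cd300lf (0.165) and Fcgr2b (0.190), for Sele Prr11 (0.184), Hvcn1 (0.226) and Chaf1b (0.238), and for Icam1 Mcm3 (0.121), Vav1 (0.131) and Foxm1 (0.167). Vcam1 was nearest to H6pd (0.0777), Zeb2os (0.0806) and Mapkapk2 (0.0816), and Icam2 to Selenoh (0.207), Akip1 (0.215) and Ggh (0.218). F11r was nearest to Lsr (0.101), a tricellular junction gene, Myl12a (0.121) and Pnp (0.128), and Jam2 to Ost4 (0.0684), Cat (0.0710) and Rps26 (0.0750). Small values for Vcam1 and Jam2 go with their small overall change. Among the 7 genes themselves Vcam1 and F11r were closest (0.243), and Selp and Jam2 were farthest apart (1.32). These profiles share libraries and the group differences, so the likeness is a description only.

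Other genes that overlap the 7, or share sequence with them, could take or give reads. Icam2, Sele and F11r overlap no other gene of the table. The antisense gene Gm47079 overlaps 511 bases of Icam1. Its estimated counts were 238, 200 and 180 for sham 1, 2 and 3, while Icam1 itself had 75, 103 and 205. In ICH it held 134 to 197, against 1096 to 1300 of Icam1, and in ICH+P7C3-A20 1 it held 278, more than Icam1 did. Reads of this pair cannot be told apart if strand was not used in counting, and that was not tested for the low Icam1 values. Gm16548, opposite Selp, held 18, 15 and 9 counts in ICH and at most 3 elsewhere, against 515 to 720 counts of Selp in ICH. Of all 50-base stretches of their transcripts, 2.27% in Icam1, 0.830% in F11r and 0.272% in Vcam1 recur in transcripts of other genes, and none do in Icam2, Sele, Selp or Jam2.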

How the data were processed

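Polyadenylated RNA from 9 mouse brains (3 groups of 3) went into libraries that mark the strand with uracil, per the labels' protocols. The submitters' processing notes name StringTie 1.3.4d, HISAT2 2.0.4 and cutadapt 1.9. Build, strand setting and count step: not given in the sources used here. Each gene has FPKM values and whole-number estimated counts, as the authors deposited them. For low genes with a single transcript, the estimated count was FPKM times length times a constant, rounded up, in 96.0% to 96.9% of cases (tolerance 0.05). For the 7 genes this length was close to that of all annotated exons merged (8870 bases in Vcam1, whose longest transcript has 4088), so FPKM understate genes with long unused exons when genes are compared.

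edgeR 4.0.16 (R 4.3.3) was run on the estimated counts of all 9 libraries with filterByExpr (minimum count 10, total 15), TMM and a robust quasi-likelihood fit of 3 group means (6 residual degrees of freedom), two-sided, with Benjamini-Hochberg adjustment over 21900 genes. The error of a log2 change is its size over the root of F. Alternatives were DESeq2 1.42.0, limma 3.58.1 on log2 FPKM, other scalings and filters, a fit of only the groups compared, omission of single libraries, and a replicate block. The edgeR fit was tested on simulated counts with the same dispersion for every gene, and the alternatives were not. Replicate numbers were checked for a pairing of the mice. Same-numbered libraries correlated at -0.26 to 0.25, which does not show a pairing and cannot exclude it. Figures used matplotlib in Python.

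The 7 genes, 4 pathway lists and 12 marker lists were chosen with earlier results of these data known. By rule all 7 genes were named in full, with 7 counter-receptors, 4 family relatives, 3 junction genes and the 3 nearest profiles of each; other names (such as Gp9, Itgad or Ly6g) were chosen after their values were seen. A further gene that the rule names is not reported here.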

Additional observations from a re-analysis of the deposited data

How the results depend on the processing

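Of 398 log2 changes of the 7 genes under alternatives, 343 kept direction and side of the threshold, 49 lost a call, 5 gained one and 1 reversed: Icam2 in ICH+P7C3-A20 against sham was -0.019 without ICH+P7C3-A20 2 (up to 0.56, without ICH+P7C3-A20 1). For ICH against sham, 7 genes were called in the reported fit and 5 to 7 with a library left out, and Icam1, Vcam1, Sele, Selp and F11r were called in each of the 19 alternatives. For ICH+P7C3-A20 against ICH, 4 were called, and 1 to 5 with a library left out (1 without ICH 1 or ICH 2, 2 without ICH 3 or ICH+P7C3-A20 1). For ICH+P7C3-A20 against sham, 4 were called, 0 with limma on log2(FPKM + 1) with or without quantile normalization, 1 with limma on log2(FPKM + 0.1), 1 with only the 2 groups compared, and 1 to 5 with a library left out; the cause was not tested. With the replicate number as a block (replicate block), 7, 4 and 4 genes were called in the 3 comparisons; same-numbered libraries correlated at -0.26 to 0.25, over 0.1 in 3 of 9 pairs, and 4 of 9 libraries correlated best with their own number. Over all tested genes, calls for ICH+P7C3-A20 against ICH were 590 higher and 1324 lower, against 1355 and 2177 by DESeq2, 214 and 1397 by limma on log2(FPKM + 1), and 79 to 130 higher and 465 to 683 lower without ICH 1, ICH 2, ICH 3 or ICH+P7C3-A20 1. For ICH+P7C3-A20 against sham they were 1002 and 163, against 1558 and 551 by DESeq2, 314 and 17 by limma on log2(FPKM + 1), 393 and 42 with only the groups compared, and 496 and 42 without ICH+P7C3-A20 3. For ICH against sham 2283 were lower, against 1112 by limma on log2(FPKM + 1) and 1354 without ICH 2.

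Relative to the endothelial genes, a pseudocount of 1 in place of 0.1, which shrinks genes under 1 FPKM, reversed Sele in ICH against sham (-0.36) and Selp in ICH+P7C3-A20 against sham (-0.11). It also moved Icam1 to 0.82 and Selp to 0.47 in ICH against sham, Sele to -0.014 and Selp to -0.58 in ICH+P7C3-A20 against ICH, and Icam1 to 0.18 in ICH+P7C3-A20 against sham. With all 14 endothelial genes as reference, Vcam1 became 0.28, Sele 1.71 and F11r 0.72 in ICH against sham, and Vcam1 became -0.32 against ICH and -0.045 against sham in the treated group. With that reference Jam2 became -0.30 and Icam2 0.071 in ICH against sham. Depth limits Sele most: its 3 libraries at 0 allow up to 0.0541, 0.0552 and 0.0625 CPM.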
